A study of Homo sapiens with 4 samples.

Results

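miR-335 and miR-153 are microRNAs that earlier work found to respond to ethanol in fetal neural progenitors. The 5p and 3p arms of both, hsa-miR-335-5p, hsa-miR-335-3p, hsa-miR-153-3p and hsa-miR-153-5p, were followed here in hESC-derived cortical interneurons. The arms were chosen by name for that earlier work, and 4 of 4 were found among the 2656 mature miRNAs of the count table. None of the 4 differed detectably between ethanol-exposed and unexposed cells, and the direction of 3 of them turned when 1 library was left out. That of miR-153-3p did not, as its groups did not overlap after scaling, which was so for 33.4% of all tested miRNAs. miR-335 was abundant from both arms, whereas miR-153 was sparse and came nearly all from its 3p arm.

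The small RNA libraries came from neural cells that had been differentiated in culture from H1, a widely used human embryonic stem cell line, into cortical interneurons, the inhibitory nerve cells of the cortex. In the ethanol-exposed group, 2 cultures received around 50 to 100 mM ethanol for 7 days in neuronal maturation medium, and in the unexposed group 2 cultures were kept for 7 days in that medium without ethanol. By the study's methods, cells were collected after a further day without ethanol, so that the values describe the time after exposure. All libraries rest on 1 cell line, treatment was done in duplicate by the methods, and p-values measure only the spread between these libraries.

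An miRNA is cut from a hairpin transcript by Drosha and Dicer, and either arm of the hairpin (5p or 3p) can be loaded into an Argonaute protein, where its seed, bases 2 to 8, pairs with target mRNAs. miR-335 lies within MEST, an imprinted gene transcribed from the paternal copy, and is also known as a suppressor of metastasis. miR-153 is enriched in brain and pancreatic islets and lies within the genes of the secretory granule proteins PTPRN and PTPRN2.

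RefSeq gave mature sequences for 3 of the 4 arms, which are shown in capitals at the seed because the seed sets the targets and shows whether other miRNAs could act on them.
hsa-miR-335-5p: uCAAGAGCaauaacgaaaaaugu
hsa-miR-335-3p: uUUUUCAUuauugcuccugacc
hsa-miR-153-3p: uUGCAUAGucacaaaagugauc

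The 3 seeds differed from one another, and 0 of the 2370 mature miRNA names in the RefSeq table carried any of them besides these arms. When only bases 2 to 7 were compared, 1 further miRNA matched, hsa-miR-448, which shares that stretch with hsa-miR-153-3p and is shown for this reason, with the shared bases in capitals.
hsa-miR-448: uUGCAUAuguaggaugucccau

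MIR335 lies on chromosome 7 of GRCh38 (chr7:130496111-130496204, plus strand), where GENCODE 29 places it in an intron of 13 MEST transcripts and, on the opposite strand, over an exon of 1 antisense transcript (AC007938.2). The hairpin is shown because it yields both abundant arms, which are in capitals, the 5p arm first.
MIR335: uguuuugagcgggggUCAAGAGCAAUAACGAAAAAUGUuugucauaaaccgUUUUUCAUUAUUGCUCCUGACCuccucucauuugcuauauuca

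RNAfold predicted a minimum free energy of -40.2 kcal/mol for the MIR335 hairpin, with 20 of 23 bases of the 5p arm and 20 of 22 bases of the 3p arm paired. The nearest other miRNA gene, MIR29A, was 380543 bases away.

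MIR153-1 lies on chromosome 2 (chr2:219294111-219294200, minus strand) in an intron of PTPRN, and MIR153-2 lies on chromosome 7 (chr7:157574336-157574422, minus strand) in an intron of PTPRN2. Both genes are known to give miR-153-3p, and the counts cannot be assigned to either. In the MIR153-1 hairpin, shown with its miR-153-3p arm in capitals, RNAfold paired 19 of the 22 bases of that arm at -48.9 kcal/mol.
MIR153-1: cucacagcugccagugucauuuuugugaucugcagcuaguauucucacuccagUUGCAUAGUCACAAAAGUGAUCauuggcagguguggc

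Library totals ran from 12100425 to 24858230 counts, and both exposed libraries were deeper than both unexposed ones, so that depth and exposure cannot be told apart. Of 8 neuronal marker miRNAs, all passed the filter on low counts and together they had counts-per-million (CPM) values that summed to 231025 to 251660, against 3.06 to 4.46 CPM for 8 pluripotency markers. Most of the neuronal sum was miR-9-5p (167314 to 214909 CPM), which also acts in neural progenitors, so the sum does not show how mature the cells were. The lowest neuronal markers were miR-137-3p (62.0 to 85.0 CPM) and miR-138-5p (41.7 to 70.3 CPM). Glial markers summed to 64.3 to 123 CPM, mesenchymal markers to 78.6 to 121 CPM and other non-neural markers to 1199 to 1449 CPM. Most of the non-neural sum was miR-126-3p (751 to 1149 CPM) and miR-1-3p (199 to 339 CPM), both above miR-137-3p and miR-138-5p. In the same list, miR-223-3p and miR-142-3p were at 0 in all 4 libraries. Which cells gave these reads was not tested. Of the pluripotency, glial, mesenchymal and other non-neural lists, 0 miRNAs had an unadjusted P under 0.05 in edgeR. Of the neuronal markers, miR-124-3p alone had an unadjusted P under 0.05 (log2 fold change 0.77, edgeR adjusted p = 0.922), at 4384 ± 1445 CPM in exposed and 2569 ± 536 CPM in unexposed cells (SD, n = 2), and its part in the values that follow was not tested. In bulk libraries, fewer cells that express an miRNA and less of it per cell cannot be told apart.

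hsa-miR-335-5p, the 5p arm of the MEST hairpin, had 32659 and 49073 counts with ethanol against 24499 and 20189 counts without it. After TMM scaling, which corrects for the composition of a library, its level was 1295 and 2016 CPM with ethanol against 2077 and 1569 CPM without it. The lowest value belonged to exposed replicate 1 and the highest to unexposed replicate 1, and the groups overlapped. The means were 1656 ± 510 CPM and 1823 ± 359 CPM (SD, n = 2).

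The log2 fold change of miR-335-5p, exposed against unexposed, was -0.14 (standard error 0.28), where the quasi-likelihood test of edgeR, adjusted over all 863 miRNAs tested, gave an adjusted p of 0.980 and a permutation test an exact p of 0.667. Its 95% interval ran from a fold of 0.580 to a fold of 1.42, which in this setting leaves out a 2-fold change in either direction. No other setting was given an interval, and without exposed replicate 2 the log2 fold change was -0.49. A 2-fold fall is thus not shown to be left out in every setting. The sign was not stable: scaled by library size only, the log2 fold change was 0.0076, without exposed replicate 1 it was 0.15 and without unexposed replicate 1 it was 0.077.

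hsa-miR-335-3p, the opposite arm of the same hairpin, had 58601 and 74035 counts with ethanol against 29111 and 30430 counts without it, which TMM scaling turned into 2324 and 3042 CPM against 2468 and 2365 CPM. Exposed replicate 2 was the highest and exposed replicate 1 the lowest, with both unexposed libraries between them. The mean levels were 2683 ± 507 CPM and 2417 ± 72.8 CPM (SD, n = 2). The log2 fold change was 0.15 (standard error 0.23, 95% interval of the fold 0.767 to 1.61), with an adjusted p of 0.968 in edgeR and an exact permutation p of 1.

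Scaling decided whether the groups overlapped for this arm. As a plain share of the library, miR-335-3p stood at 2637 and 2978 CPM with ethanol against 2088 and 2515 CPM without it, so that both exposed values were higher. Scaled in that way the log2 fold change was 0.29, while this scaling moved the median of all miRNAs by 0.15. Without exposed replicate 2 the log2 fold change was -0.056.

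**Figure D1:**
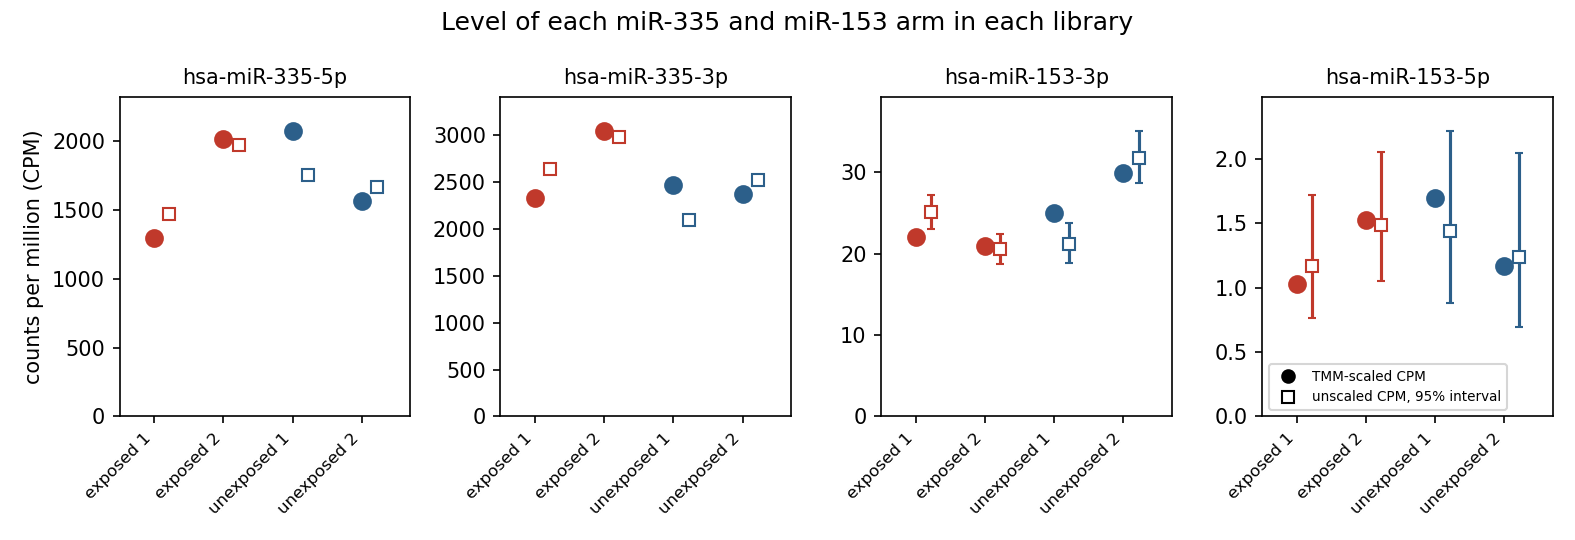
Level of each arm in CPM (vertical axes, each from 0) in the 2 exposed (red) and 2 unexposed (blue) libraries, as TMM-scaled values (filled circles) and as plain shares of the library with exact 95% binomial intervals for counting error (open squares). The miR-335-5p values of both groups interleave, miR-335-3p separates only as a plain share, miR-153-3p separates only after TMM scaling, and the intervals of miR-153-5p overlap in all 4 libraries.

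hsa-miR-153-3p, which carries nearly all miR-153 reads, had 557 and 510 counts with ethanol against 295 and 384 counts without it. Its TMM-scaled level was 22.1 and 21.0 CPM with ethanol against 25.0 and 29.8 CPM without it, so that both exposed libraries were lower. The mean was 21.5 ± 0.803 CPM in exposed and 27.4 ± 3.42 CPM in unexposed cells (SD, n = 2).

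This was the strongest shift of the 4 arms, -0.35 on the log2 scale with a standard error of 0.26, or 1.27-fold lower with ethanol. Its unadjusted P was 0.214 and its adjusted p 0.922 in edgeR, it ranked 193 of 863 miRNAs by P, and the exact permutation p was 0.333, the smallest that 2 libraries against 2 allow. The 95% interval of the fold, 0.518 to 1.19, leaves out a 2-fold fall only narrowly, and only this setting was given an interval. Upper quartile scaling gave a larger fall (-0.46, standard error 0.27) and library size only a larger standard error (0.38, at -0.21). A 2-fold fall is thus not left out under every scaling. Its sign held with any 1 library left out and in each of the other tests, scalings and filters, which gave log2 fold changes from -0.47 to -0.21. Where the groups do not overlap, leaving 1 library out can hardly turn the sign, so those fits add little to the separation itself.

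The separation of the groups rested on TMM scaling, since as a plain share miR-153-3p was at 25.1 and 20.5 CPM with ethanol against 21.2 and 31.7 CPM without it, which overlap. Among all miRNAs tested, the groups did not overlap for 33.4% with TMM scaling and for 30.8% without it. Of the 4 arms, 1 did not overlap with TMM scaling (miR-153-3p) and 1 without it (miR-335-3p), a share near that background.

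hsa-miR-153-5p, the minor arm of miR-153, had 26 and 37 counts with ethanol against 20 and 15 counts without it, above the 3 counts that a value of 0 would still allow. The TMM-scaled level was 1.03 and 1.52 CPM with ethanol against 1.70 and 1.17 CPM without it. The groups overlapped, with exposed replicate 1 the lowest and unexposed replicate 1 the highest. The means were 1.28 ± 0.346 CPM and 1.43 ± 0.375 CPM (SD, n = 2). They differed by -0.16 on the log2 scale (standard error 0.39), with an adjusted p of 0.983 in edgeR and an exact permutation p of 0.667.

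Without exposed replicate 1 the log2 fold change was 0.095 and without unexposed replicate 1 it was 0.13. No difference in miR-153-5p was detected, and the 95% interval of the fold, 0.480 to 1.67, still includes a 2-fold fall. Counting error alone gives a coefficient of variation of 20.2% at its mean of 24.5 counts, close to the 27.1% and 26.2% seen within the exposed and unexposed groups. For miR-335-5p counting error was 0.562%, against 30.8% and 19.7% within groups, so that the spread between libraries was far above counting error. With 1 library per culture, differences between cultures and between library preparations cannot be told apart. For miR-153-3p, counting error was 4.79% against 3.73% and 12.5%. These counting errors are lower bounds, since the reads carry no molecular identifiers.

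Over the whole table, 0% of the 863 miRNAs had an adjusted p under 0.05 in edgeR (0 miRNAs, and 0 in limma-voom and DESeq2), and 4.52% had an unadjusted P under 0.05 (39 miRNAs). Of the 4 arms, 0 passed either threshold. Ranked by P from the smallest, miR-335-3p was at 468, miR-335-5p at 557 and miR-153-5p at 595 of 863. The median log2 fold change of the 4 arms was -0.15, beside -0.010 over all tested miRNAs, and 1 of the 4 was above 0.

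**Figure D2:**
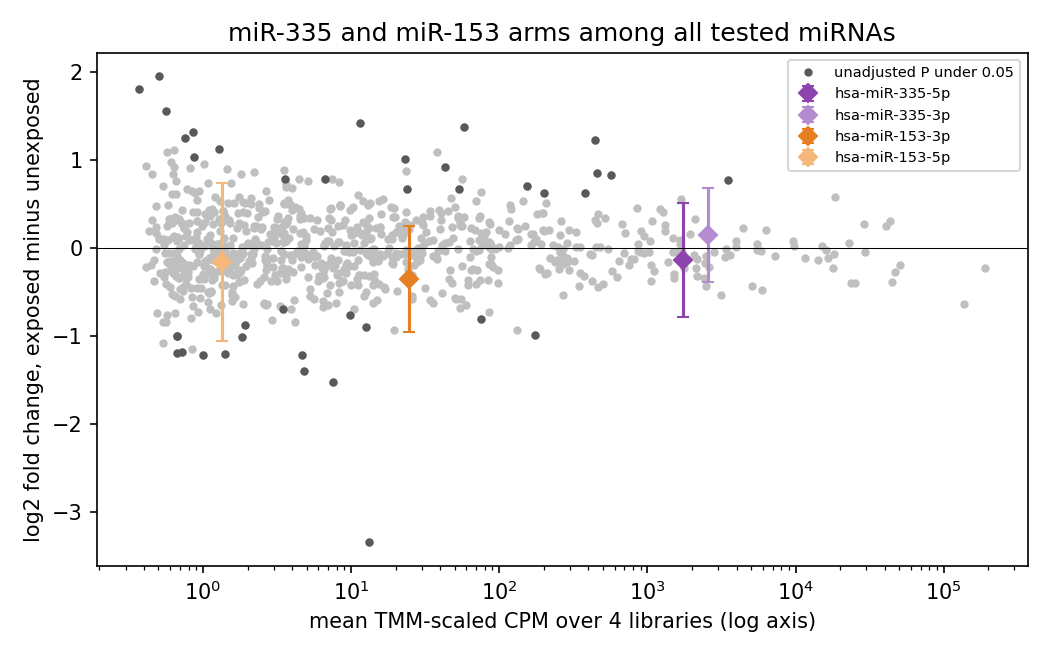
Log2 fold change of exposed against unexposed cells (vertical axis) against the mean TMM-scaled CPM (horizontal log axis) for the 863 tested miRNAs, with those under an unadjusted P of 0.05 in dark grey. Diamonds are the miR-335 and miR-153 arms with their 95% intervals, and each interval includes 0.

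The arms spanned most of the range of expression. By mean TMM-scaled CPM over the 4 libraries, miR-335-3p ranked 40 (2550 CPM), miR-335-5p 52 (1739 CPM), miR-153-3p 277 (24.5 CPM) and miR-153-5p 657 (1.35 CPM) of 863. These are counts per mature miRNA of nearly equal length, 22 or 23 bases for the 3 arms with a sequence, and capture in a ligation-based library is known to differ between sequences, so that the order is one of counts.

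Neighbours in this order did not differ beyond the spread of the libraries. miR-335-3p lay between miR-26b-5p (2608 CPM) and miR-30e-3p (2478 CPM), each of which was above it in 2 of 4 libraries. miR-335-5p lay between miR-744-5p (1769 CPM, above it in 3 of 4 libraries) and miR-24-3p (1725 CPM, in 2 of 4). miR-153-3p lay between miR-129-1-3p (24.7 CPM) and miR-10395-3p (24.1 CPM), and miR-153-5p between miR-4743-5p (1.37 CPM) and miR-3167 (1.35 CPM), and each of these neighbours was higher in 2 of 4 libraries.

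Both arms of miR-335 together made up 0.385% to 0.495% of the counts of a library, or 3619 and 5058 TMM-scaled CPM with ethanol against 4545 and 3934 CPM without it. Both arms of miR-153 together made up 0.0022% to 0.0033%, or 23.1 and 22.5 against 26.7 and 31.0 CPM. The summed miR-335 level was 157 and 225 times that of miR-153 in the exposed and 170 and 127 times in the unexposed libraries.

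The balance of the arms does not depend on scaling, because both arms are read from 1 library. For miR-335 the 3p arm exceeded the 5p arm in 4 of 4 libraries, by 1.79 and 1.51 times in the exposed and 1.19 and 1.51 times in the unexposed libraries. The 5p share was 35.8% (exact 95% binomial interval 35.5 to 36.1%) and 39.9% (39.6 to 40.1%) in the exposed and 45.7% (45.3 to 46.1%) and 39.9% (39.5 to 40.3%) in the unexposed libraries. Replicate 2 of both groups thus had nearly the same share (39.86% and 39.88%), with overlapping intervals. The difference between the groups came from replicate 1 of each.

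The mean log2 ratio of miR-335-5p to miR-335-3p was -0.72 ± 0.18 in exposed and -0.42 ± 0.24 in unexposed cells (SD, n = 2). The difference of -0.30 had an exact permutation p of 0.333, the smallest possible here, which any groups of 2 that do not overlap would give. How many other precursors had arm ratios without overlap was not counted. It was -0.17 without exposed replicate 1, -0.42 without exposed replicate 2, -0.13 without unexposed replicate 1 and -0.47 without unexposed replicate 2. Among 153 precursors with at least 10 counts of both arms in every library, miR-335 ranked 60 by the absolute difference between the groups, the median of which was 0.24.

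For miR-153 the 3p arm exceeded the 5p arm 21.4 and 13.8 times in the exposed and 14.8 and 25.6 times in the unexposed libraries. The 5p share was 4.46% (exact 95% binomial interval 2.93 to 6.47%) and 6.76% (4.81 to 9.20%) in the exposed and 6.35% (3.92 to 9.64%) and 3.76% (2.12 to 6.12%) in the unexposed libraries, with overlapping intervals. The log2 ratio differed by 0.16 between the groups (exact permutation p = 0.667), less than its pooled SD of 0.50, and ranked 102.

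miR-335 and miR-153 sat at different places among the precursors. The arms of miR-335 differed by 1.48-fold on average, and 138 of 153 precursors were more one-sided. Those of miR-153 differed by 17.9-fold, and 65 of 153 were more one-sided. Because miR-153-3p counts cannot be assigned to MIR153-1 or MIR153-2, the miR-153 ratio need not be that of 1 hairpin. Arms within 2-fold of each other were found for 23 of the 153 precursors, and the 3p arm was the higher one in 73.

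**Figure D3:**
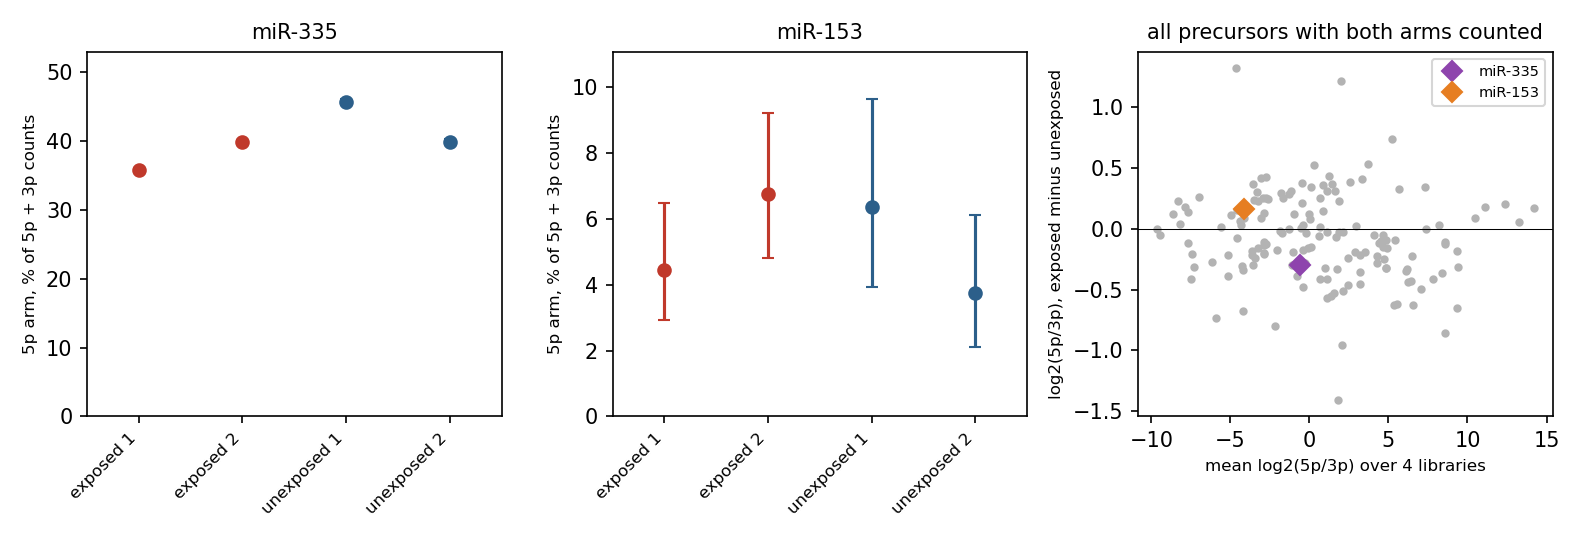
Left and middle, the 5p arm as a percentage of the 5p and 3p counts of miR-335 and miR-153 in each library (vertical axes from 0, exact 95% binomial intervals for counting error, smaller than the points for miR-335; red exposed, blue unexposed). Right, the exposed minus unexposed difference in log2(5p/3p) against its mean over 4 libraries for 153 precursors, in which miR-335 (-0.30) and miR-153 (0.16) lie inside the cloud.

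miR-448, which matches miR-153-3p at bases 2 to 7 and lies on chromosome X (chrX:114823524-114823545, plus strand, GRCh38), was more abundant than miR-153-3p. It had 6937 and 8202 counts with ethanol against 3550 and 4818 counts without it, between 12.0 and 16.1 times the miR-153-3p counts. The TMM-scaled level was 306 ± 43.7 CPM in exposed and 338 ± 52.0 CPM in unexposed cells (SD, n = 2), and the groups overlapped. The log2 fold change was -0.14 (standard error 0.23), with an adjusted p of 0.970 in edgeR.

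The same earlier progenitor work also named miR-9 and miR-21. Of their 4 arms, 0 rose and 0 fell at an unadjusted P of 0.05, and their median log2 fold change was -0.35, beside -0.010 over all miRNAs. The groups did not overlap for 3 of the 4 arms with TMM scaling, beside 33.4% of all tested miRNAs. Without TMM scaling only miR-21-5p stayed apart, beside 30.8% of all tested miRNAs. Whether the set differs from that background was not tested. miR-21-5p, a widely expressed miRNA known to lower PDCD4, was at 4949 ± 795 CPM in exposed and 6864 ± 478 CPM in unexposed cells (SD, n = 2), and the groups did not overlap with or without TMM scaling. Its log2 fold change was -0.47 (standard error 0.24), with an unadjusted P of 0.0818 and an adjusted p of 0.922 in edgeR.

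miR-21-3p had 23 and 19 counts with ethanol against 13 and 21 counts without it, or -0.69 on the log2 scale after TMM scaling (standard error 0.38), and its groups did not overlap with TMM scaling but did without it. miR-9-5p, a regulator of neural progenitors and the most abundant miRNA of these cells, differed by -0.23 on the log2 scale (standard error 0.34) with overlapping groups. miR-9-3p differed by 0.086 (standard error 0.23), with groups that did not overlap after TMM scaling but a sign that turned with upper quartile scaling. The adjusted p of the 4 arms was between 0.922 and 0.983 in edgeR.

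The profile of each arm over the 4 libraries was compared with those of the miRNAs with a mean of at least 100 counts, as the root mean square difference of centred log2 CPM. The closest to miR-335-5p was miR-577 (0.070), followed by miR-221-3p (0.070) and miR-135b-3p (0.072), beside a median of 0.35 over 447 miRNAs. miR-664a-5p (0.012), miR-137-5p (0.067) and miR-592 (0.079) were closest to miR-335-3p, with a median of 0.28. miR-379-5p (0.055), miR-296-3p (0.067) and miR-671-5p (0.080) were closest to miR-153-3p, with a median of 0.32. miR-135b-3p (0.028), miR-577 (0.029) and miR-98-5p (0.036) were closest to miR-153-5p, with a median of 0.34. With 4 libraries these distances only describe which profiles look alike, and miR-135b-3p and miR-577 were near the rare miR-153-5p as well as the abundant miR-335-5p.

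**Figure D4:**
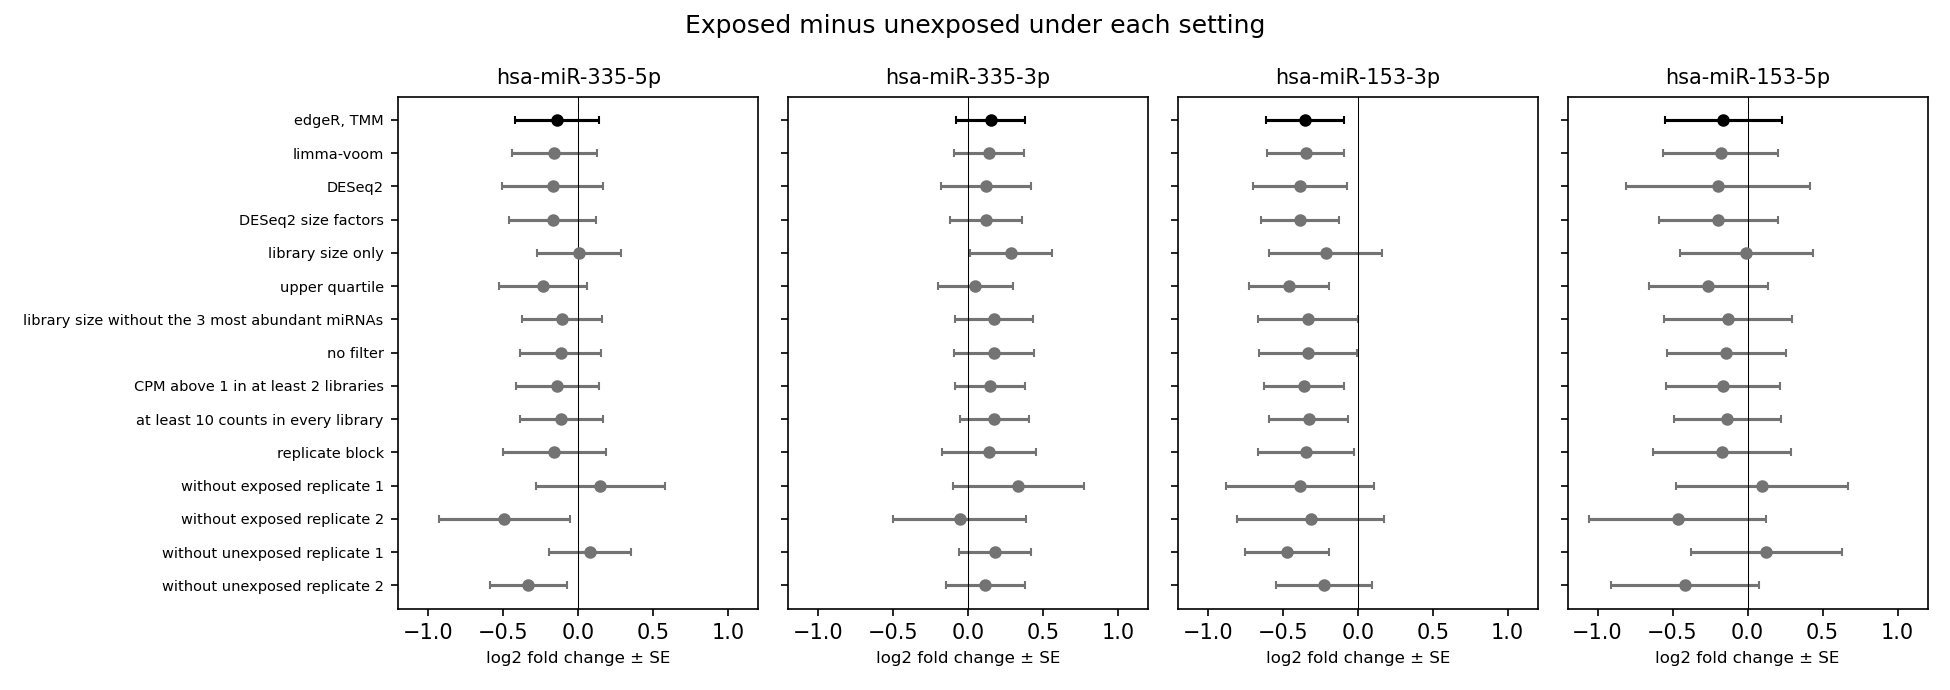
Log2 fold change of exposed against unexposed cells (horizontal axes) with its standard error for each arm under each test, scaling, filter and left-out library (rows), edgeR with TMM on top in black. The points of miR-153-3p stay below 0 in every row, while those of the other arms come near to 0 or cross it. For the left-out libraries this follows from groups of miR-153-3p that do not overlap after TMM scaling.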

How the data were processed

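Small RNA libraries of 2 ethanol-exposed and 2 unexposed cultures were analysed, grouped by their titles. The authors prepared the libraries with a NEBNext kit, counted reads with CAP-miRseq (which trims, aligns and assigns small RNA reads) and deposited the unnormalized read counts of each mature miRNA. The submitters' processing notes name hg19. The CAP-miRseq version, the miRNA annotation release and the handling of reads that match several miRNAs are not given in the sources used here. The counts carry no coordinates. Positions and sequences come from RefSeq (GRCh38.p14) and GENCODE 29 (GRCh38), matched by name.

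Counts were analysed with edgeR 4.0.16 in R 4.3.3: filterByExpr (minimum count 10, minimum total 15), which kept 863 miRNAs and 4 of 4 arms, TMM factors (0.846 to 1.13), the quasi-likelihood test and Benjamini-Hochberg adjustment over all tested miRNAs. The standard error was taken from the F statistic. Log2 CPM for exact permutation tests (two-sided) and arm ratios had 0.5 added to each count. The fit was tested on simulated data. Hairpins were folded with RNAfold 2.7.2. The other fits tried were DESeq2 1.42.0, limma-voom with limma 3.58.1, 4 scalings, 3 filters, a replicate block and each library left out in turn. The arms, lists and tests were chosen with earlier results of these data known. Besides the arms, miRNAs were named by these rules: both arms of miR-9 and miR-21, seed matches, arms from the IGF2, H19 and GNAS loci, level neighbours, the 3 closest profiles and cell type markers. miR-448, a match over bases 2 to 7 only, was chosen after its values were seen. A result for 1 further miRNA is not reported here. Depth was 12100425 to 24858230 counts per library, and 3 counts correspond to 0.121 to 0.248 CPM.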

Additional observations from a re-analysis of the deposited data

How the results depend on the processing

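Under the 9 other tests, scalings and filters, 0 of the 4 arms reached an unadjusted P of 0.05, and the same was true of the replicate block and of each left-out library. With library size only the log2 fold change of miR-335-5p turned to 0.0076, while this scaling moved the median of all miRNAs by 0.15 and upper quartile scaling moved it by -0.11. With 1 library left out, where the lone library of a group is assumed to vary like the other group, the log2 fold change ranged from -0.49 to 0.15 for miR-335-5p, from -0.056 (without exposed replicate 2) to 0.33 for miR-335-3p, from -0.47 to -0.22 for miR-153-3p and from -0.46 to 0.13 for miR-153-5p, above 0 without exposed (0.095) or unexposed (0.13) replicate 1. The cause was not tested. The number of all miRNAs with an unadjusted P under 0.05 (39) was 94 with no filter, where 1825 were tested, and 11 to 106 with 1 library left out, lowest without exposed replicate 1, 75 without unexposed replicate 1 and highest without unexposed replicate 2. At an adjusted p of 0.05 it was 6 with no filter and 1 to 16 with 1 library left out. Same-numbered libraries had a correlation of -0.19 in their deviations across miRNAs, so that the numbers were not read as pairs. With the replicate block the log2 fold changes were -0.16 (miR-335-5p), 0.14 (miR-335-3p), -0.35 (miR-153-3p) and -0.17 (miR-153-5p), and 25 miRNAs had an unadjusted P under 0.05. With the crossed replicate block, chosen after seeing the data, 59 had. With 2 libraries per group, leaving 1 out cannot move a difference in arm balance by more than its pooled SD. The replicate block returns the same difference, so neither setting can show that the balance was stable. Without the pseudocount the difference was -0.298 for miR-335 and 0.177 for miR-153, beside -0.298 and 0.160 with it. The difference of miR-153 ranged from -0.23 to 0.55 with 1 library left out, so that its sign turned. Of the 4 arms, miR-153-5p had the fewest counts, at 15 to 37 per library, and the effect of depth on its result was not tested.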

Other observations

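Of 7 arms from the imprinted IGF2, H19 and GNAS loci, which are only some of the imprinted loci with miRNAs, 2 passed the filter on low counts, and 0 of them had an unadjusted P under 0.05 in edgeR. miR-296-5p was at 8.92 ± 3.54 CPM in exposed and 7.47 ± 0.229 CPM in unexposed cells, and miR-296-3p at 61.3 ± 0.693 CPM and 72.0 ± 11.0 CPM (SD, n = 2). miR-675-5p of H19 had 13 and 11 counts with ethanol against 7 and 1 counts without it, and miR-298 was at 0 in all 4. None of these reached the level of the miR-335 arms.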
